A study of Mus musculus with 15 samples.

Results

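Mouse TH17 cultures that had received the compound Srci1 were set against TH17 cultures that had received its solvent, DMSO, with 3 libraries of each. Genes were kept if they reached 1 TPM (transcript abundance corrected for gene length and library total) in at least 3 of these 6 libraries. This left 11620 of the 55421 genes in the deposited table, and 10633 of the 11620 are annotated as protein coding. The series holds 15 libraries in 5 groups of 3, and bears on how T cell receptor signals and STAT3 phosphorylation shape TH17 differentiation.

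All cultures began with sorted naive CD4 T cells (among other markers CD25- and CD44 low) of mouse spleen and lymph nodes, stimulated with plate-bound anti-CD3 at 2 µg/ml and anti-CD28 at 1 µg/ml, in the presence of antibodies to IFNγ and IL-4 at 1 µg/ml. The TH17 medium held TGFβ at 2.5 ng/ml and IL-1β, IL-6 and IL-23 at 10 ng/ml each. Srci1 went in 24 h after plating, at a concentration not given in the sources used here, and RNA was taken on day 5. The TH17 cultures with Srci1 and those with DMSO were both of wild-type genotype. The other 3 groups are used here only where they bear on this comparison. They were wild-type Treg cultures with Srci1 and with DMSO, grown in TGFβ at 0.5 ng/ml and IL-2 at 200 U/ml, and TH17 cultures with DMSO from STAT3-fl/fl CD4-cre cells, in which Cre acts in every cell that has expressed CD4. The labels do not say whether the 3 libraries of a group came from separate mice or separate wells, so p-values measure only how far these libraries scatter, and that scatter may be technical.

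TH17 cells are helper T cells that secrete IL-17A and IL-17F and protect barrier tissues. IL-6 and IL-23 drive them through STAT3 and the lineage factors it helps induce, while TGFβ without IL-6 favours FOXP3-expressing regulatory T cells (Treg cells), so the opposing programs start from a shared signal. The T cell receptor acts first through Src family kinases, chiefly LCK and FYN, and then through calcium, RAS and NF-κB pathways.

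Srci1 moved a large part of the measured RNA in the TH17 cultures. On the log2(TPM + 1) scale the greatest differences among protein-coding genes were those of Il17a, at -5.02, and Foxp3, at 4.02. That scale compresses genes of low level, such as Drc1 and Vax2, which are described further on. In a limma fit over all 15 libraries on log2(TPM + 1), 5230 of 12800 tested genes passed a Benjamini-Hochberg adjusted p of 0.05, which is 40.9% of them. Of the tested genes 4324 (33.8%) were called higher and 906 (7.08%) lower with Srci1. Among the 11620 genes described here 4249 rose, 877 fell and 6494 were not called. At least 2-fold changes were seen in 546 of the higher and 161 of the lower genes, and at least 4-fold changes in 50 and 19. Of the genes that changed at least 2-fold, 501 of the 546 and 146 of the 161 are protein coding.

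The excess of higher calls depended on scale. TPM values are shares of a fixed total, and cytosolic ribosomal protein genes took 22.9%, 24.1% and 23.6% of it with Srci1, against 28.0%, 29.8% and 32.3% with DMSO. The 100 most abundant genes together held 38.7% ± 0.31 with Srci1 and 44.4% ± 1.5 with DMSO (SD, n = 3 each). Both groups' libraries lay apart for either class, and the exact permutation test gave p = 0.1 for each, the smallest that 3 against 3 libraries allow. The median tested gene was 0.21 log2 units higher with Srci1. After median-of-ratios scaling, which sets the typical gene ratio between libraries to 1, 2114 genes (16.5%) were called higher and 2115 (16.5%) lower, and 2068 and 2065 of the described genes. Higher genes were 82.9% of the calls on the TPM scale and 50% after scaling. No described gene was called in opposite directions on the 2 scales. Small log2 fold changes can therefore differ in sign between the scales, and list counts are given on both. DMSO replicate 3 was the lowest DMSO library for 62.5% of the 11620 genes, against 21.1% for replicate 1 and 15.9% for replicate 2. Without it, of the 119 named genes refitted without each library Lck alone changed the sign of its log2 fold change.

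Abundance separated the calls. Of the 238 genes at 500 TPM or more, 18.5% were called higher and 40.8% lower. From 20 to 100 TPM, 43.9% of 4036 genes were called higher and 6.32% lower, and under 5 TPM, 21.9% of 2530 genes were higher and 7.71% lower. After median-of-ratios scaling the shares at 500 TPM or more were 4.62% higher and 58% lower. The lower calls were thus most frequent among the most abundant RNAs. Cytosolic ribosomal protein genes, of which 60 of 80 fell, are among the abundant RNAs, and their part in this was not counted.

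**Figure D1:**
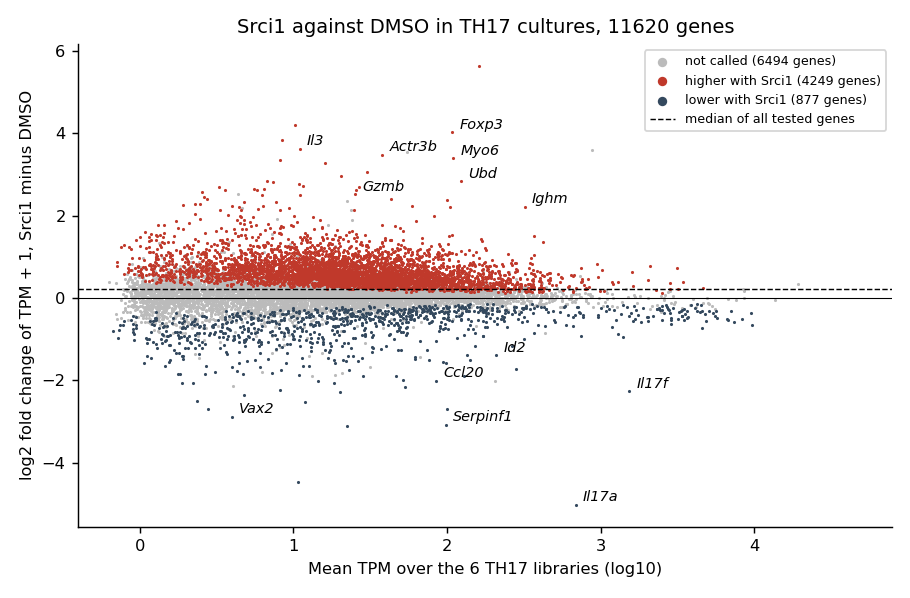
Each point is a gene with at least 1 TPM in 3 of the 6 libraries, placed by its mean TPM over these libraries (log10 scale, horizontal) and by the limma log2 difference, Srci1 minus DMSO (vertical). Called genes are coloured and the dashed line marks the median of all tested genes. Il17a lies lowest at -5.02, and Foxp3 lies highest among protein-coding genes at 4.02, below the pseudogene models Gm28439 and Gm26712.

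The TH17 cytokines were the most affected of the lineage genes. Of 15 described cytokine genes of this lineage 2 rose and 11 fell (1 and 13 after median-of-ratios scaling), with a median log2 fold change of -0.78. Those that rose were Il9, described further on, and Osm, which encodes oncostatin M and was 0.24 log2 units higher. Il17a, the signature cytokine (chromosome 1, bases 20730905 to 20734496 of GRCm38, plus strand), had 42.0, 36.5 and 42.5 TPM with Srci1, against 1280, 1356 and 1378 TPM with DMSO (log2 fold change -5.02, limma adjusted p = 8.08e-12). Its paralog Il17f kept more of its RNA, at 552, 518 and 524 TPM with Srci1 and 2646, 2429 and 2579 TPM with DMSO. Il17f thus fell less than Il17a and was the more abundant of the pair in every library of both groups. Il21, which acts back on TH17 cells through STAT3, had 61.5, 48.7 and 53.1 TPM with Srci1, against 238, 210 and 168 TPM with DMSO. Ccl20, the ligand of the TH17 chemokine receptor CCR6, had 37.3, 31.6 and 30.6 TPM with Srci1 and 140, 129 and 142 TPM with DMSO. Il24, a cytokine of the IL-10 family, fell by 1.99 and Tgfb3 fell by 1.17 on the log2 scale. In none of these genes did libraries of the 2 groups overlap, which the naming rule given below required of most of them. Of all 11620 described genes, 4890 had every Srci1 library above every DMSO library and 1128 had every one below. The cytokine class as a whole held 0.211%, 0.217% and 0.217% of all TPM with Srci1, against 0.616%, 0.607% and 0.623% with DMSO.

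The transcription factors of the lineage moved in both directions. Of 17 described, 7 rose and 6 fell (4 and 8 after scaling). The higher share lay near that over all tested genes, and the lower share was above the 7.08%, or 16.5% after scaling, over all tested genes. Gfi1, a repressor that restrains the TH17 program, fell by 0.94, Fosl2 by 0.82 and Bhlhe40 by 0.64 log2 units. Ikzf3, which encodes Aiolos and is known to silence Il2, had 73.4, 68.0 and 69.7 TPM with Srci1, against 24.4, 24.2 and 14 TPM with DMSO. The ligand-activated factor Ahr had 16.2, 13.6 and 15 TPM with Srci1 and 6.36, 6.45 and 4.51 TPM with DMSO. Stat3 itself had 158, 152 and 161 TPM with Srci1, against 130, 133 and 99.8 TPM with DMSO (log2 fold change 0.39, limma adjusted p = 0.00731), and was not called after scaling (adjusted p = 0.161) or in a fit of only the groups compared (adjusted p = 0.0525).

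Among 13 receptors and surface genes of TH17 cells 5 rose and 4 fell (5 and 6 after scaling). Il6st, the signalling chain of the IL-6 receptor, had 25.1, 23.7 and 22.9 TPM with Srci1, against 7.28, 7.21 and 3.37 TPM with DMSO. The leukotriene B4 receptor gene Ltb4r1 moved the other way, with 47.4, 47.2 and 51.8 TPM with Srci1 and 140, 153 and 153 TPM with DMSO. The IL-1 receptor gene Il1r1 rose by 0.87 log2 units.

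Genes of the regulatory program moved in the opposite direction to the cytokines, though not all of them. Of 21 described, 12 rose and 5 fell (10 and 6 after scaling), with a median of 0.64. Foxp3 (chromosome X, bases 7573644 to 7595245, plus strand) had 194, 208 and 209 TPM with Srci1, against 12.2, 13.6 and 9.37 TPM with DMSO (log2 fold change 4.02 ± 0.10 SE, limma adjusted p = 1.17e-11). Il2ra, the high-affinity IL-2 receptor chain, had 1288, 1155 and 1180 TPM with Srci1 and 785, 720 and 572 TPM with DMSO. Both genes were higher in every Srci1 library than in any DMSO library. Itgae, which encodes the CD103 integrin chain, had 8.85, 7.34 and 7.99 TPM with Srci1, against 1.22, 1.19 and 0.77 TPM with DMSO. In Treg cultures Itgae averaged 0.86 TPM with Srci1 and 0.30 TPM with DMSO, below both means of these TH17 cultures. Gpr83 rose by 1.32, the semaphorin receptor gene Nrp1 by 1.16 and Ebi3, a subunit of IL-35, by 1.06 log2 units. Lag3, an inhibitory receptor also counted with this program, fell to 12.3, 12.9 and 13.4 TPM with Srci1, against 34.9, 37.3 and 35.8 TPM with DMSO. The other genes of the program that fell were Tnfrsf4, Tnfrsf9 and Tnfrsf18, which encode the co-stimulatory receptors OX40, 4-1BB and GITR, and the actin capping gene Capg. In bulk RNA, a change in the share of FOXP3-expressing cells and a change in the RNA of each cell cannot be told apart, and the same holds for every gene described here.

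**Figure D2:**
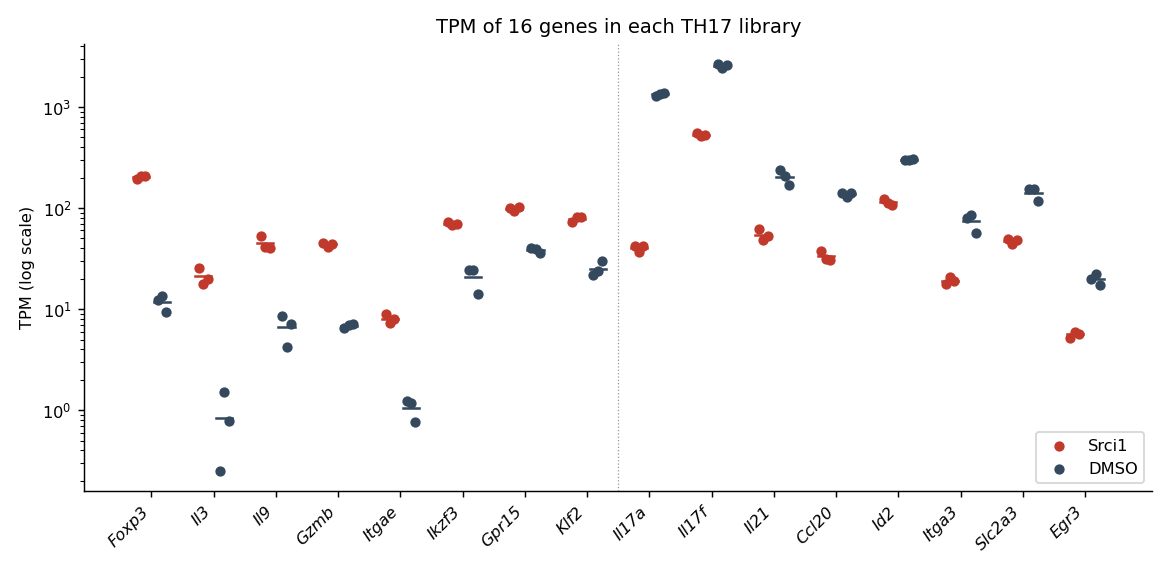
Levels of 16 genes in each of the 6 TH17 libraries (TPM, log axis), with the Srci1 libraries of a gene left of its DMSO libraries and bars at the means. For the 8 genes left of the dotted line, from Foxp3 to Klf2, every Srci1 library lies above every DMSO library, and for the 8 genes right of it, from Il17a to Egr3, below. Genes named by rule had to meet this condition.

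Genes of TGFβ signalling were mostly higher on the TPM scale. Of 20 receptors, SMADs and targets 13 rose and 2 fell (8 and 5 after scaling). Tgfbr2, the ligand-binding receptor, had 52.5, 48.1 and 52.4 TPM with Srci1, against 28.4, 25.5 and 18.5 TPM with DMSO, and the SMAD corepressor gene Skil rose by 1.08 log2 units. Of the list's genes that fell, Tgfb3 is described above with the cytokines.

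Il9 and cytokines of other helper lineages moved in both directions. Il9, a growth factor for mast cells and T cells, had 52.3, 41.6 and 40.3 TPM with Srci1, against 8.49, 4.23 and 7.09 TPM with DMSO. Il3, a growth factor for blood progenitors, mast cells and basophils, had 25.6, 17.5 and 20.1 TPM with Srci1 and 0.25, 1.5 and 0.78 TPM with DMSO (log2 fold change 3.62). The DMSO libraries of Il3 lay near or below the 1 TPM threshold. Of the 6 described TH2 and growth cytokines, the list that holds Il3 and Il2, 2 rose and 2 fell (2 and 3 after scaling). Il2, the T cell growth factor, fell to 17.5, 12.5 and 12.3 TPM with Srci1, against 34.0, 30.3 and 36 TPM with DMSO. Gata3, the master factor of TH2 cells, had 9.94, 13 and 12.6 TPM with Srci1 and 4.30, 3.75 and 5.03 TPM with DMSO, although over the 12 TH1 and TH2 factors 3 rose and 4 fell (2 and 5 after scaling).

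The cytotoxic genes Gzmb and Prf1 rose from low levels, within a list of 6 granule genes of which 2 rose and 3 fell. Those that fell were Srgn, at means of 905 TPM with Srci1 and 1481 TPM with DMSO, Ctsw and Gzma. The whole class held 0.108% of all TPM with Srci1 and 0.163% with DMSO. Gzmb, the granule protease granzyme B, had 45.6, 41.3 and 44.2 TPM with Srci1, against 6.51, 6.94 and 7.07 TPM with DMSO, and Prf1, the pore-forming perforin, had 3.48, 3.74 and 2.66 TPM with Srci1 against 0.52, 0.66 and 1.08 TPM with DMSO. Of 7 described killer cell lectin-like receptor genes 5 rose and 0 fell. Klrc1, which encodes the NKG2A receptor, had 96.9, 71.2 and 74.3 TPM with Srci1 and 34.3, 32.4 and 36.3 TPM with DMSO. The chemokine gene Xcl1 had 13.7, 15.1 and 21.2 TPM with Srci1, against 2.37, 3.09 and 5.20 TPM with DMSO. Chemokine ligand genes split, with 2 of 8 rising and 4 falling on both scales. Ccl4 fell to 11.6, 9.78 and 10.1 TPM with Srci1, against 30.6, 29.1 and 35.6 TPM with DMSO, and Ccl3 fell by 0.91 log2 units.

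Factors that T cell receptor stimulation induces were lower as a group. Of 26 described, 1 rose and 14 fell (0 and 17 after scaling), with a median of -0.37. The gene that rose was Nfkbia, the inhibitor of NF-κB, at 0.24. Egr3, an immediate early factor downstream of calcium and RAS signals, had 5.21, 5.99 and 5.67 TPM with Srci1, against 19.8, 22.2 and 17.4 TPM with DMSO (log2 fold change -1.65, limma adjusted p = 5.96e-08). Nr4a1, an orphan nuclear receptor used as a reporter of receptor signal strength, had 71.8, 78.1 and 72.9 TPM with Srci1 and 192, 200 and 199 TPM with DMSO. Egr1 fell by 1.10, Egr2 by 0.93, Nr4a3 by 0.89 and Spry1, a brake on RAS signalling, by 0.97 log2 units. In AP-1, another family that activation induces, subunit genes moved in both directions. Fos had 17.7, 17.8 and 20.5 TPM with Srci1, against 5.16, 6.6 and 5.77 TPM with DMSO. Jun had 60.5, 61.5 and 65.5 TPM with Srci1 and 36.8, 40.0 and 35.6 TPM with DMSO. Over the 14 AP-1 and BATF factors 5 rose and 2 fell (3 and 3 after scaling), among the latter Fosl2, by 0.82 log2 units. Over all tested genes 33.8% were called higher and 7.08% lower (16.5% each after scaling), so the list's higher share lay near that over all genes.

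RNAs of the Src family kinases changed little or were low. Lck had 393, 413 and 406 TPM with Srci1, against 398, 423 and 385 TPM with DMSO, and was not called (log2 fold change 0.01, limma adjusted p = 0.917). After scaling its log2 fold change was -0.27 (adjusted p = 0.00829), and without DMSO replicate 3 it was -0.02. Fyn had 101, 98.2 and 104 TPM with Srci1 and 95.6, 94.1 and 79.3 TPM with DMSO, a difference of 0.17 (limma adjusted p = 0.0486) that turned to -0.10 after scaling and missed the threshold without DMSO replicate 3 (adjusted p = 0.182), without any of the 3 Srci1 libraries in turn (adjusted p = 0.0633 to 0.135) and in a fit of only the groups compared (adjusted p = 0.175). Neither kinase gene therefore has a direction that holds on both scales. Src stayed low at 2.02, 2.56 and 2.54 TPM with Srci1, against 0.87, 1.39 and 0.73 TPM with DMSO (limma adjusted p = 0.0024). Yes1 had 2.04, 1.51 and 1.89 TPM with Srci1 and 1.58, 0.90 and 0.52 TPM with DMSO, with groups that overlapped (limma adjusted p = 0.0279). It was not called without DMSO replicate 2 (0.0682) or 3 (0.131) or without Srci1 replicate 1 (0.0911) or 3 (0.0737), nor after scaling (0.0837), without ribosomal and mitochondrial genes (0.0557) or in a fit of only the groups compared (0.113). Within the 14 described kinases and regulators of the family 9 rose and 2 fell (5 and 4 after scaling). Among 26 genes of receptor signalling 15 rose and 4 fell (10 and 6 after scaling). Txk, a TEC family kinase, had 19.4, 18.4 and 17.3 TPM with Srci1, against 8.47, 6.77 and 6.42 TPM with DMSO. Ptpn22, a phosphatase that acts on LCK and ZAP70, fell to 33.3, 28.4 and 28.5 TPM with Srci1, against 59.0, 58.5 and 49.0 TPM with DMSO. The adaptor gene Pag1, which recruits the Src inhibitor CSK to membranes, rose by 1.14 log2 units, the ubiquitin ligase gene Cbl by 1.11 and Nfatc3 by 1.02.

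Genes of cytokine feedback and of the IL-2 and STAT5 response had no direction shared by both scales as a list, though single members moved. Socs3, which STAT3 induces and which blocks IL-6 signalling, had 151, 157 and 157 TPM with Srci1, against 78.6, 88.5 and 80.3 TPM with DMSO (log2 fold change 0.90). Socs2 rose by 0.80 and the survival kinase gene Pim2 by 0.82 log2 units, and 10 of 17 genes of this list and of the IL-2 and STAT5 response rose while 2, Socs1 and Xbp1, fell (6 and 5 after scaling). Receptors of the IL-1, IL-18, IL-33 and IL-10 families were also mostly higher on the TPM scale. Of 15 described, 11 rose and 0 fell (7 and 1 after scaling). Il18r1 had 36.3, 30.4 and 32.9 TPM with Srci1 and 16.6, 13.9 and 10.5 TPM with DMSO, and Il10ra rose by 0.80 log2 units. In the BCL2 family 4 of 14 genes rose and 2 fell (4 and 6 after scaling). Bcl2l11, which encodes the death-promoting protein BIM, had 36.2, 37.3 and 37.9 TPM with Srci1, against 18.0, 18.4 and 13.3 TPM with DMSO. The pro-survival near-identical copies Bcl2a1b and Bcl2a1d fell by 1.2 and 1.31 log2 units, and reads of these copies can be split uncertainly between them.

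Genes of naive and recirculating T cells were mostly higher on the TPM scale. Of 18 described, 11 rose and 3 fell (7 and 3 after scaling), with Ly6c1, described further on, among those that fell. Over all tested genes 33.8% were called higher and 7.08% lower (16.5% each after scaling). Klf2, the factor that maintains quiescence and egress, had 72.7, 82.4 and 80.8 TPM with Srci1, against 21.9, 23.8 and 29.8 TPM with DMSO. Its target S1pr1, the egress receptor, rose by 0.83 log2 units, and the upstream factor gene Foxo1 rose by 0.97. Gpr15, a homing receptor for the large intestine, had 101, 93.0 and 102 TPM with Srci1, against 40.4, 39.7 and 36.2 TPM with DMSO. Cxcr4, the receptor of CXCL12, fell by 0.72 log2 units. Integrin genes were mostly higher, with 7 of 12 rising and 1 falling (7 and 3 after scaling). Itgb3 had 8.65, 7.73 and 7.74 TPM with Srci1 and 1.77, 1.34 and 1.23 TPM with DMSO, while the laminin-binding chain gene Itga3 fell to 17.6, 21 and 18.9 TPM with Srci1, against 80.1, 86.0 and 57.1 TPM with DMSO.

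Co-stimulatory and checkpoint genes moved in both directions, 6 of 18 higher and 7 lower (2 and 9 after scaling). Pdcd1, which encodes PD-1, had 9.92, 10.2 and 9.29 TPM with Srci1, against 27.6, 25.4 and 22.2 TPM with DMSO. Cd86, a ligand of CD28 and CTLA-4, had 29.1, 23.4 and 24.4 TPM with Srci1 and 10.6, 8.63 and 10.0 TPM with DMSO. In the TNF superfamily 8 of 21 genes rose and 10 fell (5 and 10 after scaling). The TNF receptor gene Tnfrsf1b had 77.8, 79.5 and 75.6 TPM with Srci1, against 36.3, 36.4 and 30.7 TPM with DMSO. The ligand genes Tnfsf11, which encodes RANKL, and Tnfsf14, which encodes LIGHT, fell by 1.31 and 1.10 log2 units.

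Glycolytic and hypoxia-inducible genes were lower. Of 21 glycolysis genes 0 rose and 13 fell (0 and 19 after scaling), with a median of -0.25. Their share of all TPM was 2.18% ± 0.047 with Srci1 and 2.36% ± 0.033 with DMSO (SD, n = 3 each). Of 20 described genes of oxygen sensing and HIF response 1 rose and 10 fell (0 and 18 after scaling), with a median of -0.37. The gene that rose was Arnt, which encodes the dimer partner of HIF, at 0.47. Slc2a3, a high-affinity glucose transporter, had 49.3, 43.7 and 48.0 TPM with Srci1, against 155, 154 and 116 TPM with DMSO. Egln3, a prolyl hydroxylase that marks HIF for destruction and is itself HIF-induced, had 163, 162 and 163 TPM with Srci1 and 390, 374 and 346 TPM with DMSO. Ndrg1 fell by 1.04, Vegfa by 0.98 and the mitophagy receptor gene Bnip3 by 0.84 log2 units. HIF binds the letters ACGTG, which were present in 10 of 17 RefSeq promoter windows of this list (58.8%) on either strand, against 19.7% of all windows and 26.4% of those of tested genes. The other common core, GCGTG, stood in 11 of 17 (64.7%), against 52.5% of the windows of tested genes. A window covers 250 bases before to 50 bases after an annotated transcript start.

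Cholesterol synthesis moved as a block in the other direction. Of 26 described genes of sterol synthesis and uptake 25 rose and 0 fell (24 and 0 after scaling), with a median of 1.09, against 0.21 over all tested genes. Hmgcs1, the enzyme that makes HMG-CoA, had 185, 142 and 158 TPM with Srci1, against 62.3, 53.4 and 50.1 TPM with DMSO (log2 fold change 1.53). Nsdhl, which removes a methyl group from the sterol ring, had 56.8, 55.5 and 51.8 TPM with Srci1 and 20.6, 21.9 and 19.4 TPM with DMSO. Mvd, the last decarboxylase of the mevalonate pathway, had 120, 128 and 132 TPM with Srci1, against 49.1, 51.2 and 50.8 TPM with DMSO. Neither these genes nor Dhcr7, which makes the final reduction to cholesterol, had overlapping groups, as the naming rule required. Dhcr7 had 69.0, 63.9 and 54.4 TPM with Srci1 and 24.8, 24.5 and 19.8 TPM with DMSO. The class held 0.268%, 0.258% and 0.256% of all TPM with Srci1, against 0.134%, 0.130% and 0.117% with DMSO. Fatty acid synthesis and desaturation followed, with 12 of 13 genes rising and 0 falling (9 and 0 after scaling). Fads2, a desaturase, had 75.5, 77.3 and 72.9 TPM with Srci1 and 29.3, 28.9 and 25.3 TPM with DMSO, and Acaca, the rate-limiting carboxylase, rose by 1.11 log2 units. Of 9 cholesterol efflux genes and targets of the oxysterol receptor LXR 3 rose and 0 fell (1 and 0 after scaling).

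SREBP factors switch on sterol genes through sterol elements together with the factor NF-Y, which binds CCAAT boxes. RefSeq windows (GRCm38.p6) could be matched for 19 of the 26 genes, and CCAAT stood on either strand in 16 of them (84.2%), against 37.9% of all 27025 windows and 39.5% of the 9295 windows of tested genes. The sterol element TCACNCCAC, searched on both strands, stood in 1 of the 19, that of Hmgcs1, against 1.22% of all windows and 0.958% of those of tested genes. The windows of the 3 genes above are shown because they hold these letters and belong to a group that moved together. Each is written 5′ to 3′ on the gene's strand, with CCAAT or its reverse complement and, in Hmgcs1, the sterol element in capitals. They lie at chr13:119690101-119690400 on the plus strand (Hmgcs1), chrX:72918271-72918570 on the plus strand (Nsdhl) and chr8:122443373-122443672 on the minus strand (Mvd).
Hmgcs1: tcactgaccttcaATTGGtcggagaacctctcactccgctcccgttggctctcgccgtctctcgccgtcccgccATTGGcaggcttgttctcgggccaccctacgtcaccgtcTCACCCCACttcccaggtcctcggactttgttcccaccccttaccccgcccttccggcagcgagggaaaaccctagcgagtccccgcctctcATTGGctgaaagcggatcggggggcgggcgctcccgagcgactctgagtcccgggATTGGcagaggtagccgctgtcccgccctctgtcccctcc
Nsdhl: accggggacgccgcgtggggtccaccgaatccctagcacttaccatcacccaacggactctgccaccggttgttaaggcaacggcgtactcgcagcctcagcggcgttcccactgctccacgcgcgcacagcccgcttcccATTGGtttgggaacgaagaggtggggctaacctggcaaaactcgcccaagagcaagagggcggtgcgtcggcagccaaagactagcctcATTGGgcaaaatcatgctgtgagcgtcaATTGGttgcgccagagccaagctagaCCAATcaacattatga
Mvd: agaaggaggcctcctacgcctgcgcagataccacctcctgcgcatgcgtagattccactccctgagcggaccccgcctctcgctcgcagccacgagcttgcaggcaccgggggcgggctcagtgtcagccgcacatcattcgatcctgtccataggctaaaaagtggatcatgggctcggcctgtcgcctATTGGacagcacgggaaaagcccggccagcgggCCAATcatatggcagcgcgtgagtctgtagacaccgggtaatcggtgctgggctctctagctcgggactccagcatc
The windows of Hmgcs1 and Nsdhl hold 4 CCAAT boxes each and that of Mvd 2. A match of letters is a description of the window and not evidence of binding.

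Genes of mitosis and spindle were higher almost without exception, and most genes of DNA replication were higher too. Of 45 mitosis and spindle genes 41 rose and 0 fell (38 and 0 after scaling), with a median of 0.97, and of 42 genes of DNA replication and nucleotide synthesis 38 rose and 0 fell (26 and 3 after scaling), with a median of 0.59. Foxm1, the factor that drives mitotic genes, had 63.0, 54.0 and 57.3 TPM with Srci1, against 25.1, 22.4 and 15.7 TPM with DMSO. Rrm2, the regulated subunit of ribonucleotide reductase, had 256, 240 and 238 TPM with Srci1 and 99.1, 95.6 and 87.1 TPM with DMSO. E2f2, an activator of S phase genes, had 54.3, 55.2 and 53.1 TPM with Srci1, against 22.4, 23.0 and 17.8 TPM with DMSO. The effect spanned S phase and mitosis, with no overlap of groups in these genes, as the naming rule required. Plk1, a mitotic kinase, had 131, 129 and 127 TPM with Srci1 and 64.5, 56.3 and 48.1 TPM with DMSO. Racgap1, a component of the midzone complex of dividing cells, had 150, 148 and 137 TPM with Srci1, against 70.9, 64.8 and 42.0 TPM with DMSO. Its partner in cytokinesis, the exchange factor gene Ect2, had 26.7, 24.9 and 22.5 TPM with Srci1 and 12.1, 8.89 and 7.18 TPM with DMSO. Aurka rose by 1.19 log2 units. Mitosis genes held 0.440% of all TPM with Srci1 and 0.244% with DMSO, and replication genes 0.420% and 0.273%. Of 50 replication-dependent histone genes 15 rose and 0 fell (7 and 0 after scaling), with a median of 0.64. That share of higher calls was below the 33.8% over all tested genes, while the median was above the 0.21 over all tested genes. As a class they held 0.048%, 0.0516% and 0.0504% of all TPM with Srci1, against 0.029%, 0.0286% and 0.0332% with DMSO. The libraries were poly(A)-selected, and how far that selection affected histone RNAs was not tested. Inhibitors of the cycle rose as well, 13 of 19 with 0 falling (8 and 3 after scaling), among them Cdkn2c by 0.95 log2 units. Of 14 p53 targets 9 rose and 1, Plk2, fell (7 and 2 after scaling), and the stress sensor gene Sesn1 had 35.6, 31.7 and 31.9 TPM with Srci1, against 14.4, 11.7 and 10.7 TPM with DMSO.

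Many late cell cycle promoters carry the cell cycle homology region TTTGAA, which the DREAM and MuvB complexes read. It stood on either strand in 30 of 39 matched windows of mitosis genes (76.9%), against 18.1% of all windows and 11.9% of those of tested genes. Its variant TTTAAA stood in 10 of 39 (25.6%), against 13.2% of all windows and 8.91% of those of tested genes. Replication genes held the E2F site TTTGGCGC in 6 of 34 windows (17.6%), against 0.537% of all windows and 1.11% of those of tested genes. The E2F site TTTCCCGC likewise stood in 6 of 34, against 1.11% of all windows and 2.25% of those of tested genes. The windows of 3 mitosis genes with values above are shown in the same way, with TTTGAA or its reverse complement in capitals. They lie at chr3:27153829-27154128 on the minus strand (Ect2), chr15:99651607-99651906 on the minus strand (Racgap1) and chr7:122159185-122159484 on the plus strand (Plk1).
Ect2: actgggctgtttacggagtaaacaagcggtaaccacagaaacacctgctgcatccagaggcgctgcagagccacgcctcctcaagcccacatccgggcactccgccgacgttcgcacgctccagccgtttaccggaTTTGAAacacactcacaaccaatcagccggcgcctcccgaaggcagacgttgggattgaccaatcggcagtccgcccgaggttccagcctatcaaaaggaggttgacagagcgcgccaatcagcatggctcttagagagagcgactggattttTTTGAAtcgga
Racgap1: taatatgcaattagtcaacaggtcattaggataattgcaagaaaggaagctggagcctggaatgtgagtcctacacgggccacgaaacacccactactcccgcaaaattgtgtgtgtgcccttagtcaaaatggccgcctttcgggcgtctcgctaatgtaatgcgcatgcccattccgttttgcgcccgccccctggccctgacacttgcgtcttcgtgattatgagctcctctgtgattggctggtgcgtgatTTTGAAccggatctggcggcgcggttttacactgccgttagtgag
Plk1: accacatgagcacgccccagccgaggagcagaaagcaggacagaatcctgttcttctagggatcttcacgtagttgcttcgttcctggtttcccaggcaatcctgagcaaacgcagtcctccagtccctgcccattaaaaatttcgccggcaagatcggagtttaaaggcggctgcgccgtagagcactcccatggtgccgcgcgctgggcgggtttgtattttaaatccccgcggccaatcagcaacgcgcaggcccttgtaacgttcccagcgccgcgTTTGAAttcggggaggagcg
The Ect2 window holds 2 matches and the other two hold 1 each. No binding was measured in these cultures.

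**Figure D3:**
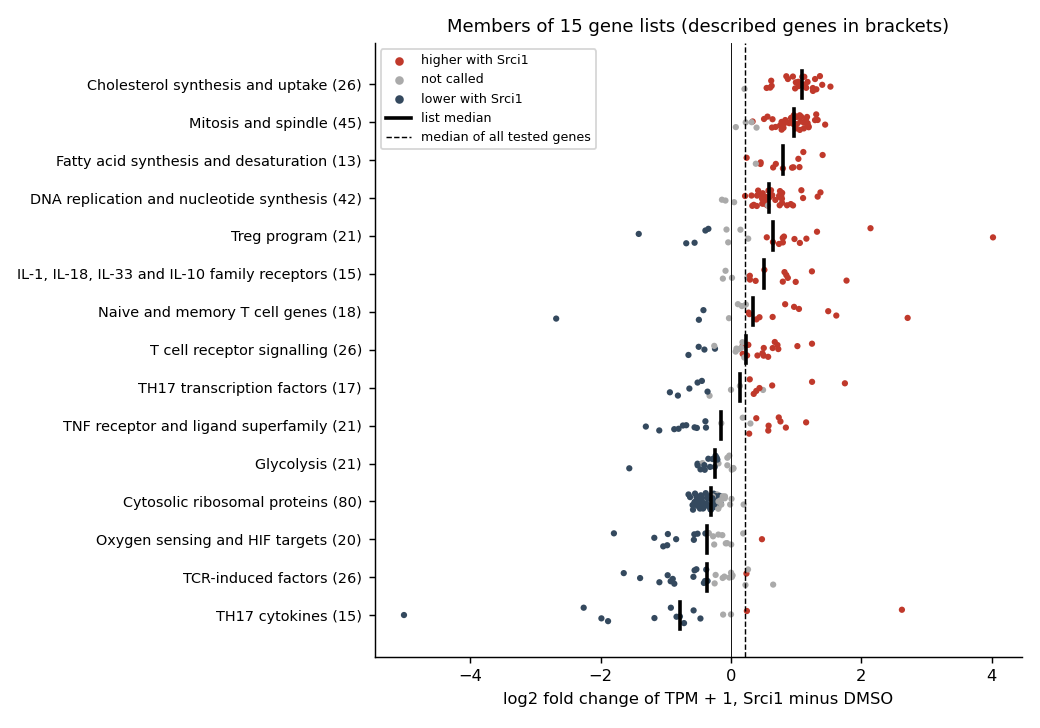
Each point is a described gene of 1 of 15 lists, placed by its limma log2 difference, Srci1 minus DMSO, with the list median as a bar and the median of all tested genes, 0.21, as a line. Cholesterol synthesis and mitosis lie to the right, and TH17 cytokines, HIF targets, glycolysis and ribosomal proteins to the left.

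Genes of protein synthesis divided by compartment and role. Of 80 cytosolic ribosomal protein genes 0 rose and 60 fell (0 and 74 after scaling), with a median of -0.31. Rps27, a small subunit protein gene, had 7239, 7753 and 7678 TPM with Srci1, against 11720, 11693 and 12193 TPM with DMSO. Pseudogene copies of ribosomal protein genes can take some of these reads. Mitochondrial ribosomal protein genes gave 15 higher and 6 lower of 78 (1 and 16 after scaling), and translation factors 15 higher and 8 lower of 64 (5 and 26 after scaling), so neither class has a direction shared by the scales. Amino acid stress genes controlled by ATF4 gave 13 higher and 2 lower of 24 (4 and 3 after scaling), with Trib3 at 21, 27.2 and 23.7 TPM with Srci1 and 9.17, 11.9 and 11.6 TPM with DMSO. Nupr1, a stress factor of the same list, had 18.1, 15.2 and 16.4 TPM with Srci1, against 5.75, 4.42 and 5.88 TPM with DMSO.

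**Figure D4:**
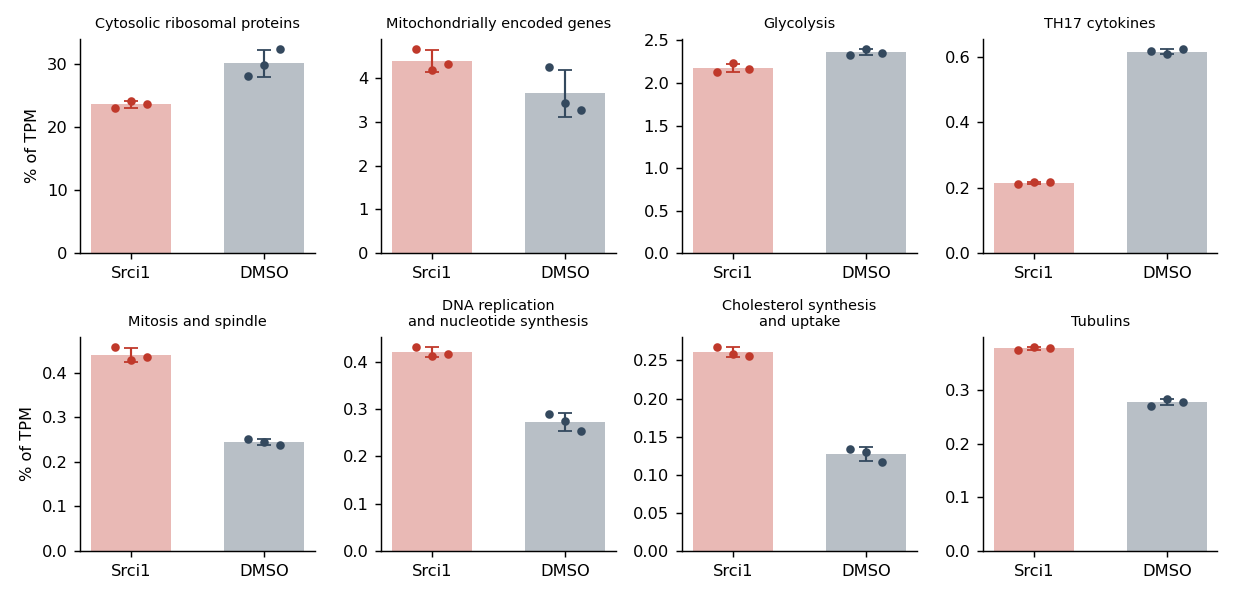
Share of all TPM held by 8 gene classes in each TH17 library (percent; points are libraries, bars the mean and error bars the SD of 3 libraries), Srci1 left of DMSO. Ribosomal protein genes held 23.6% with Srci1 and 30.1% with DMSO, and mitosis, replication and cholesterol genes held more with Srci1.

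Cytoskeletal genes were among the largest increases outside these programs. Myo6, an actin motor that moves towards minus ends, had 198, 199 and 204 TPM with Srci1, against 21.5, 16.2 and 17.5 TPM with DMSO (log2 fold change 3.38). Actr3b, a variant subunit of the ARP2/3 actin nucleator, had 70.1, 72.5 and 68.2 TPM with Srci1 and 6.09, 5.98 and 4.27 TPM with DMSO. Coro2a, a coronin, had 54.5, 56.6 and 52.6 TPM with Srci1, against 5.65, 7.09 and 4.57 TPM with DMSO. The naming rule required separate groups, and in each of the 3 genes the gap was wide. Over the whole list of 33 actin regulators 19 rose and 3 fell (8 and 5 after scaling). The intermediate filament gene Vim had 2389, 2853 and 2685 TPM with Srci1 and 1393, 1557 and 1648 TPM with DMSO. Tubulin genes gave 8 higher and 2 lower of 12 (4 and 2 after scaling).

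The remaining largest increases had no shared list. Gata1, an erythroid and mast cell factor, had 38.6, 27.6 and 23.7 TPM with Srci1, against 1.5, 3.35 and 1.82 TPM with DMSO. Ubd, a ubiquitin-like modifier, had 224, 206 and 220 TPM with Srci1 and 34.9, 28.8 and 26.0 TPM with DMSO. Atp1b1, a subunit of the sodium pump, rose by 2.97, the Hippo pathway factor gene Tead1 by 2.84, Klf3 by 2.71 and S100a4 by 2.69 log2 units. Drc1, a part of the ciliary dynein regulatory complex, had 18.4, 16.4 and 15 TPM with Srci1, against 0.10, 0.30 and 0.29 TPM with DMSO. In all, 116 genes reached 1 TPM in every Srci1 library and no DMSO library, Drc1 and the peroxisomal oxidase gene Acox2 among them, and 62 did the converse. The homeobox gene Vax2 belongs to the 62, at 0.25, 0.30 and 0 TPM with Srci1, against 6.19, 7.18 and 10.0 TPM with DMSO.

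Among the largest decreases, Serpinf1, a secreted serpin, had 18.4, 19.6 and 22.4 TPM with Srci1, against 177, 174 and 177 TPM with DMSO. The surface antigen gene Ly6c1 had 21.5, 33.9 and 24.2 TPM with Srci1 and 176, 167 and 176 TPM with DMSO, and its relative Ly6g had 19.0, 18.4 and 19.1 TPM with Srci1 and 96.5, 88.0 and 80.3 TPM with DMSO. Ly6 genes are similar in sequence, so that reads may be shared between them. Crabp2, a retinoic acid carrier, had 6.64, 6.27 and 5.38 TPM with Srci1, against 29.0, 35.6 and 36.8 TPM with DMSO.

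The cultures were checked for other cells. The B cell marker Cd79a stayed under 0.5 TPM, and the mast cell markers Cpa3 and Ms4a2 were listed at 0 in all 6 libraries. Of 10 B cell markers 7 were under 1 TPM throughout, yet the sum of the list was 516 to 549 TPM with Srci1 and 116 to 120 TPM with DMSO, almost all of it Ighm, which had 543, 508 and 533 TPM with Srci1 and 111, 114 and 116 TPM with DMSO. The list of 10 myeloid markers summed to 4.32 to 5.07 TPM with Srci1 and 4.15 to 7.28 TPM with DMSO. Of 11 mast cell, basophil and eosinophil markers 9 were under 1 TPM, 6 of them at 0 in all libraries, and the sum of 25.7 to 41.9 TPM with Srci1, against 4.30 to 5.99 TPM with DMSO, was mostly Gata1. Of 9 red blood cell and platelet markers 7 were under 1 TPM, and the sums were 6.62 to 7.39 TPM with Srci1 and 0.26 to 1.27 TPM with DMSO. Most of the sum with Srci1 was globin RNA, since Hba-a1 had 4.81, 5.23 and 2.78 TPM with Srci1 and 0, 0.97 and 0 TPM with DMSO, and its near-identical copy Hba-a2 had 2.52, 1.22 and 3.22 TPM with Srci1 and 1.02, 0 and 0 TPM with DMSO. The red cell markers Hbb-bt and Alas2 were listed at 0 throughout. The 8 CD8 T cell and NK cell markers summed to 90.2 to 118 TPM with Srci1, against 53.1 to 55.5 TPM with DMSO, most of it Klrd1, which had 104, 77.1 and 86.1 TPM with Srci1 and 44.8, 41.1 and 42.5 TPM with DMSO. Of the CD8 chains, Cd8a stayed under 1 TPM and Cd8b1 had 9.80, 7.66 and 6.33 TPM with Srci1, against 6.56, 7.41 and 7.71 TPM with DMSO. The 6 γδ T cell markers summed to 14.6 to 21 TPM with Srci1 and 5.97 to 6.86 TPM with DMSO, and 3 of them, including Trdc, were under 1 TPM throughout. The higher sum lay mostly in Tcrg-C2, at 8.55, 6.79 and 8.30 TPM with Srci1 and 0.77, 0.79 and 1.25 TPM with DMSO, and Tcrg-C4. Trdc had 0.45, 0.66 and 0.40 TPM with Srci1 and 0.46, 0.43 and 0.55 TPM with DMSO. Markers of dendritic cells and MHC class II summed to 79.0 to 95.8 TPM with Srci1, against 102 to 122 TPM with DMSO, and 6 of the 10 were under 1 TPM throughout. The main members moved apart. H2-Ab1 had 26.2, 31.8 and 29.5 TPM with Srci1 and 64.6, 74.1 and 75.8 TPM with DMSO, and Cd74 had 49.9, 61.3 and 55.4 TPM with Srci1 and 33.9, 37.5 and 43.8 TPM with DMSO. The part of these cells in the results on Gzmb, Klrc1, Xcl1, Gata1 and Il3 was not tested. T cell RNA was present in both groups, with Cd3g at 342, 336 and 328 TPM with Srci1 and 543, 521 and 555 TPM with DMSO. Cd4 had 200, 186 and 185 TPM with Srci1 and 316, 295 and 216 TPM with DMSO (limma adjusted p = 0.00201). Of 14 genes of the T cell receptor complex and CD4 T cell identity 2 rose and 4 fell (0 and 7 after scaling). Over all tested genes 33.8% were called higher and 7.08% lower (16.5% each after scaling).

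Whether TH17 and Treg cultures answered Srci1 in the same way was tested as the difference between the Srci1 effects in the 2 culture types, which share no library. Of the 12800 tested genes 1821 differed on the TPM scale (14.2%), 1443 with the higher log2 change in TH17 cultures and 378 with the lower. After median-of-ratios scaling 1840 differed, and their split by direction was not counted. The library factors of that scaling were 1.04 to 1.09 with Srci1 and 0.787 to 0.946 with DMSO in TH17 cultures. In Treg cultures they were 1.09 to 1.13 and 1.02 to 1.03, so the split may depend on scale. The counts that follow are on the TPM scale. Of the 546 genes that rose at least 2-fold in TH17 cultures 309 differed, 246 were also called higher in Treg cultures and 21 were called lower there. Over all tested genes 17.1% were called higher and 10% lower with Srci1 in Treg cultures. Of the 161 that fell at least 2-fold 85 differed, 2 were called higher and 87 lower in Treg cultures.

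Several genes went opposite ways. Il3 rose in TH17 cultures but fell in Treg cultures, at 14.2, 11.6 and 13.6 TPM with Srci1 and 39.9, 46.8 and 44.6 TPM with DMSO (difference of log2 changes 5.29, limma adjusted p = 1.23e-06). Gzmb had 470, 498 and 462 TPM with Srci1 in Treg cultures, against 1244, 1290 and 1302 TPM with DMSO. Its level in Treg cultures was thus above that in TH17 cultures throughout, while the direction was reversed. The serpin genes Serpina3f and Serpina3g, close paralogs that may share reads, also fell in Treg cultures, at means of 7.5 and 98.6 TPM with Srci1, against 47.3 and 207 TPM with DMSO. In TH17 cultures Serpina3f had 8.82, 9.30 and 9.52 TPM with Srci1 and 1.74, 1.80 and 1.37 TPM with DMSO. Id2, an inhibitor of E proteins, fell in TH17 cultures to 124, 112 and 108 TPM with Srci1, against 297, 299 and 309 TPM with DMSO, and averaged 116 TPM with Srci1 and 77.5 TPM with DMSO in Treg cultures. Stat3, whose higher level in TH17 cultures was not called on both scales, fell by 0.80 log2 units in Treg cultures (difference 1.19, limma adjusted p = 9.83e-05).

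Foxp3 and genes of oxygen and glucose metabolism went the same way by different amounts. Foxp3 had 257, 279 and 270 TPM with Srci1 in Treg cultures, against 131, 131 and 127 TPM with DMSO, so its increase was 2.98 log2 units larger in TH17 cultures. Egln3 had 16.3, 15.5 and 15 TPM with Srci1 in Treg cultures and 156, 153 and 155 TPM with DMSO, a fall 2.06 log2 units larger than in TH17 cultures. The glucose-related genes Aldoc, which encodes an aldolase, and Slc16a3, which encodes the lactate exporter MCT4, fell by 2.16 and 2.13 log2 units in Treg cultures but by 0.41 and 0.51 in TH17 cultures. Of the glycolysis list 16 of 21 genes differed between the culture types, and 22 of 24 ATF4 targets and 19 of 27 interferon-stimulated genes did. The median log2 change of the glycolysis list was -0.25 in TH17 and -0.60 in Treg cultures. On the TPM scale, medians of the other 2 lists had opposite signs. They were 0.32 in TH17 and -0.58 in Treg cultures for ATF4 targets and 0.31 in TH17 and -0.54 in Treg cultures for interferon-stimulated genes. The TH17 medians lay near the 0.21 over all tested genes and were 0.06 and 0.07 after scaling. Treg medians are given on the TPM scale only. Of the 27 interferon-stimulated genes 13 rose and 0 fell in TH17 cultures (8 and 5 after scaling). The interferon gene Irf1 also went opposite ways. It had 39.0, 33.2 and 30.7 TPM with Srci1, against 22, 20.7 and 18.1 TPM with DMSO, in TH17 cultures, and fell by 0.54 log2 units in Treg cultures. Myo6 did not differ detectably, with means of 154 TPM with Srci1 and 17.4 TPM with DMSO in Treg cultures (difference 0.33, limma adjusted p = 0.484). Nr4a1 fell by 1.49 log2 units in Treg cultures and by 1.4 in TH17 cultures.

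**Figure D5:**
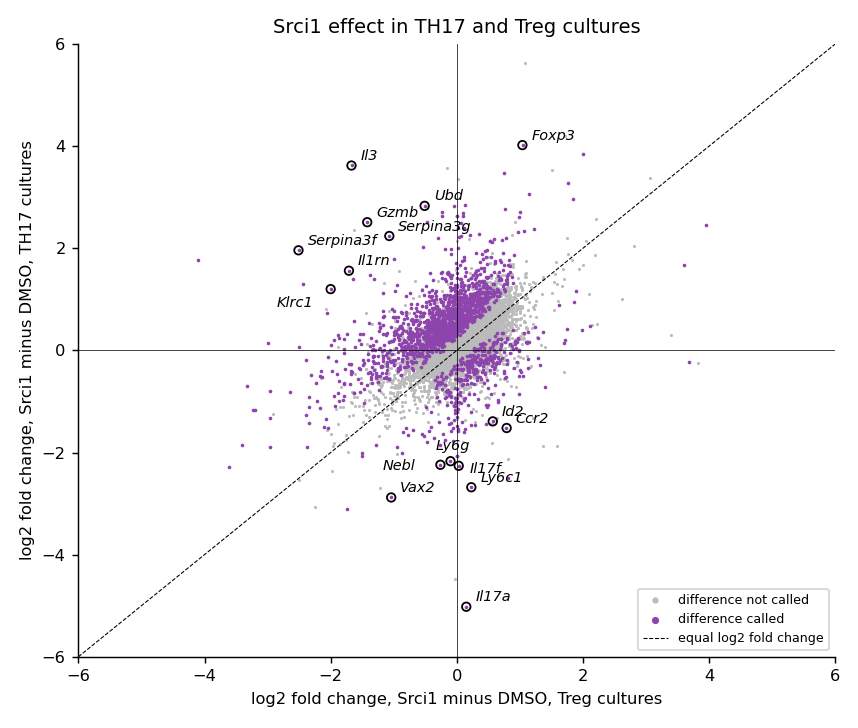
Each point is a described gene, placed by its Srci1 minus DMSO log2 difference in Treg cultures (horizontal) and in TH17 cultures (vertical); genes whose difference between culture types was called are coloured, and the 16 genes with the largest called differences by the naming rule are circled. Il3 and Gzmb lie upper left, higher in TH17 cultures and lower in Treg cultures, and Il17a lies lowest, near no change in Treg cultures.

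Srci1-treated wild-type cultures were also set beside STAT3-knockout TH17 cultures with DMSO, in which Stat3 had 33.5, 38.4 and 30.7 TPM. These groups differed in 6283 of 12800 tested genes (49.1%), with 3922 higher and 2361 lower with Srci1. Foxp3 did not differ detectably, at 204 ± 8.4 TPM with Srci1 and 205 ± 17.6 TPM in the knockout (SD, n = 3 each), with a log2 difference of 0.00 ± 0.10 (SE, limma adjusted p = 0.974). Klf2 was also close, at 72.7 to 82.4 TPM with Srci1 and 77.3 to 87.6 TPM in the knockout. Other genes lay far apart. Socs3 was 3.79 log2 units higher with Srci1 than in the knockout, which had 10.4, 9.63 and 10.7 TPM. Il17a, at 10.1, 8.76 and 11.7 TPM in the knockout, was 1.89 log2 units higher with Srci1, and Il17f, at 19.6, 18.2 and 19.4 TPM in the knockout, was 4.73 log2 units higher. Egln3 was at 10.4, 11.0 and 8.83 TPM in the knockout, 3.89 log2 units below Srci1. Xcl1 reached 1588, 1513 and 1652 TPM in the knockout and was 6.51 log2 units lower with Srci1. Ubd was at 0.75, 0.81 and 2.05 TPM in the knockout and 6.68 log2 units higher with Srci1. Gzmb, Il3 and Il9 averaged 6.85, 0.50 and 3.50 TPM in the knockout, below each Srci1 library. Ccl20 averaged 82.7 TPM in the knockout, above each Srci1 library and below each DMSO library of the wild type.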

How the data were processed

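RNA was sequenced from poly(A)-selected NEBNext Ultra II libraries of TRIzol extracts, per the labels' protocols. The deposited table gives TPM made by the authors per Ensembl gene on the GRCm38 build with RSEM 1.3.3 and STAR 2.7.9a, per the submitters' processing notes. TPM keeps no depth, so read depth is unknown and no counting interval was given; columns summed to 999999 to 1000001. Whether counting used strand is not given in the sources used here. Antisense and overlapping genes therefore cannot be told apart. Gene positions are those of GENCODE M21, and promoter windows are from RefSeq.

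The 12800 genes with at least 1 TPM in 3 libraries were fitted with limma 3.58.1 (R 4.3.3), trend option, on log2(TPM + 1) over all 15 libraries with 5 group means. A fold change on that scale understates the change of low genes. Benjamini-Hochberg adjusted p under 0.05 made a call. Single values were compared by exact two-sided permutation. Tables and plots used Python 3.11.15, pandas 2.3.3, scipy 1.17.1 and matplotlib 3.10.9.

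Genes were named by a rule. They were called, had every library of 1 group above every library of the other and a mean of at least 5 TPM in 1 group, and were among the 15 largest changes in a direction, the 6 largest of a list, or the 8 largest differences from Treg cultures in a direction, leaving out unnamed models, pseudogenes and receptor segments. Stat3, Src, Lck, Fyn, Yes1, Il17a, Il17f, Il21, Foxp3, Il2ra, Socs3 and the markers of other cells were named regardless. Some genes that the rule names are not reported here. Osm, Nfkbia, Arnt, Plk2, Socs1, Xbp1, Capg, Tnfrsf4, Tnfrsf9, Tnfrsf18, Gm28439 and Gm26712, named to account for small counts or a plotted extreme, were chosen after their values were seen. The comparison, members and gene lists were chosen with earlier results of these data known, and lists share some genes.

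Same-numbered Srci1 and DMSO libraries deviated together with correlations of 0.128, 0.0316 and -0.0133, so replicate numbers were not taken as pairs. The alternatives were other pseudocounts, filters and scalings, a fit of only the groups compared, a replicate block, and leaving out each library.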

Additional observations from a re-analysis of the deposited data

Results flagged for a closer look

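The effect of Srci1 differed between TH17 and Treg cultures for 1821 genes by the limma test of the difference itself. Among genes named by rule, the difference of log2 changes, TH17 minus Treg, was positive for Il3 at 5.29, Serpina3f at 4.46, Gzmb at 3.93, Ubd at 3.34, Serpina3g at 3.30, Il1rn at 3.27, Klrc1 at 3.19 and Foxp3 at 2.98. It was negative for Il17a at -5.17, Ly6c1 at -2.91, Ccr2 at -2.30, Il17f at -2.29, Ly6g at -2.06, Nebl at -1.97, Id2 at -1.96 and Vax2 at -1.84. These genes were flagged because the 2 culture types responded by different amounts or in opposite directions. For Il17a, Il17f and Ly6g the libraries of Treg cultures stayed under 1 TPM with Srci1 and with DMSO, so their difference is the change in TH17 cultures. Il1rn, the IL-1 receptor antagonist, had 0.22, 0.34 and 0.29 TPM with Srci1 in Treg cultures, against 1.01, 2.36 and 9.83 TPM with DMSO, so its difference rests on DMSO libraries that spread widely. Nebl, a nebulette gene, had 1.36, 2.30 and 2.98 TPM with Srci1 in TH17 cultures and 11.7, 18.4 and 12.2 TPM with DMSO. Ccr2, a receptor of inflammatory chemokines, averaged 1.12 TPM with Srci1 and 0.23 TPM with DMSO in Treg cultures, both low.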

How the results depend on the processing

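Scaling moved the split between higher and lower calls. With median-of-ratios scaling, 2114 genes were called higher and 2115 lower with Srci1 in TH17 cultures, with 263 and 286 changing at least 2-fold (552 and 164 of all tested genes on the TPM scale). Rescaled without ribosomal and mitochondrial genes, 250 fell at least 2-fold, and with a pseudocount of 0.1, 874 rose and 281 fell at least 2-fold. Fitting only the groups compared gave 3515 calls against 5230, 2859 of them higher, with fewer libraries to estimate the spread. Leaving out each library in turn gave 4156 to 5500 calls, 3290 to 4646 of them higher and 742 to 866 lower, 404 to 750 at least 2-fold higher and 163 to 194 at least 2-fold lower. It gave 1321 to 2082 differences from Treg cultures, 5540 to 6148 from the knockout, and a difference in ribosomal protein share, Srci1 minus DMSO, of -7.52 (without DMSO replicate 1) to -5.38 (without DMSO replicate 3) percentage points, against -6.51. With the replicate block the count was 5063, with 4186 higher and 877 lower, and 1655 genes differed from Treg cultures and 6180 from the knockout, and Fyn was not called (adjusted p = 0.0603). The log2 fold change of Lck reversed to -0.27 with median-of-ratios scaling and -0.11 without ribosomal and mitochondrial genes and ranged from -0.024 to 0.044 when single libraries were left out (below 0 without DMSO replicate 3 and without Srci1 replicate 2), and that of Fyn reversed to -0.10 with median-of-ratios scaling; the cause was not tested. Of 1544 combinations of named gene and alternative, 1522 kept direction and call, and 115 of 119 genes kept both in each. Lists with a median above that of all genes numbered 25 of 51, 22 to 35 under the other settings and 25 to 26 with libraries left out, and 13 lists changed side under some setting. Arms cut to 2 libraries share the spread of the other groups. Unknown depth limits genes near 1 TPM.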
